A study of Mus musculus with 12 samples.

Results

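Transcript levels of *Trp53*, the gene of the p53 protein, and of 9 of its target genes were followed in the hippocampus of *Dek* knockout and wild-type mice. The 10 genes are *Sfn*, *Trp53*, *Cdkn1a*, *Mdm2*, *Bax*, *Bbc3*, *Ccng1*, *Phlda3*, *Sesn2* and *Gadd45a*, out of 26409 genes listed by the authors. The group was selected on results of the *Dek* cKO against WT comparison in these same libraries, in which *Sfn* stood out, so the values of the 10 genes in that comparison are given as a description without a test. *Sfn* was also named by the study, whose quantitative RT-PCR found it raised in *Dek* cKO females and without a genotype effect in males. Its values by sex are therefore a description too.

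Bulk RNA sequencing was done on microdissected hippocampi of 12 mice, with 3 female and 3 male WT mice and as many *Dek* cKO mice of each sex. The knockout animals are constitutive, without exons 3 and 4 of *Dek* in the germline. These exons lie between loxP sites and were cut out with CMV-Cre, which the colony no longer carries, on a C57Bl/6 background. The deletion is therefore carried by every cell type and from development onwards. The mice were 6 to 12 months old and had been through behavioral testing before tissue was taken. All values are in TPM, reads divided by transcript length and scaled in each library, so that levels of different genes can be set side by side. The deposited columns do not share a total, as their sums run from 825750 to 845553 TPM. TPM keeps no read depth, so counting errors are not given. Each library lists between 18104 and 18719 genes above 0 TPM.

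p53 is a transcription factor that is kept scarce in unstressed cells because MDM2, itself made from a p53 target gene, marks it for degradation. DNA damage and other stresses release it, and it then raises genes that stop the cell cycle, prime the cell for apoptosis, support DNA repair or adjust metabolism. Its activity is set mostly through the protein and not through the *Trp53* transcript, so the target genes are the usual readout in RNA data. In mature neurons, which do not divide, p53 is best known for its part in cell death after injury.

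*Dek* itself checked the genotype labels. The 6 WT libraries had 48.3 ± 2.58 TPM of *Dek* (SD, n = 6) and the 6 *Dek* cKO libraries 7.23 ± 1.32 TPM (SD, n = 6), with no overlap. The sex labels did not all hold. The library labelled female cKO replicate 3 showed male levels of the Y-linked genes *Eif2s3y* (72.7 TPM) and *Ddx3y* (20.4 TPM). The library labelled male cKO replicate 1 showed female levels, 0.111 TPM for *Eif2s3y* and a listed 0 for *Ddx3y*. Comparisons between the sexes are therefore given with and without these 2 libraries. The names of the 3 female WT libraries carry another prefix than the other 9, so within female mice the prefix and the genotype cannot be told apart. The comparison within 1 prefix is 6 *Dek* cKO against 3 male WT libraries.

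Tissue markers were present in every library. The summed level of 6 neuronal markers was 4846 ± 155 TPM in WT and 4724 ± 216 TPM in *Dek* cKO mice (SD, n = 6 each), and *Snap25* was the most abundant of them. The sum of 10 markers of hippocampal subfields was 679 ± 41.5 TPM in WT and 686 ± 89.8 TPM in *Dek* cKO mice, led by *Nptx1*. In bulk tissue, fewer cells of a type and less RNA per cell cannot be told apart.

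All 10 genes were measured in all 12 libraries and all passed the filter for testing, a mean of at least 0.1 TPM, as did 18197 genes in total. In WT mice the levels ran from 49.6 ± 5.28 TPM for *Bax* (SD, n = 6) down to 2.66 ± 0.319 TPM for *Sfn*. The levels fell into 4 tiers that did not overlap between WT libraries. *Bax*, *Mdm2* and *Ccng1* lay between 34.4 and 58.4 TPM, and each overlapped its neighbour in this order. *Trp53* and *Phlda3* followed between 16.7 and 26.4 TPM. *Bbc3*, *Gadd45a*, *Sesn2* and *Cdkn1a* lay between 3.92 and 13.2 TPM, again with overlap between neighbours. *Sfn* was alone at the bottom, between 2.22 and 3.04 TPM.

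*Sfn* encodes 14-3-3σ, a scaffold protein that binds phosphorylated partners and holds cells at the G2 to M transition after DNA damage, and it is best known from skin and other epithelia. It is a gene of a single annotated exon on the minus strand of chromosome 4 (GRCm38, 133600556 to 133602168). It had 2.80, 3.04 and 2.65 TPM in the female WT libraries and 2.22, 2.37 and 2.91 TPM in those of male WT mice. The female *Dek* cKO libraries had 4.81, 4.84 and 3.49 TPM, and the male ones 4.82, 4.78 and 4.79 TPM. Every *Dek* cKO library was above every WT library. The *Dek* cKO mean of 4.59 ± 0.538 TPM was 1.72 times the WT mean, and the log2 fold change was 0.76 (SE 0.12) on the scale of log2(TPM + 0.1).

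Among the 12 libraries, 5 of the 6 *Dek* cKO values of *Sfn* lay between 4.78 and 4.84 TPM. The lowest, 3.49 TPM, came from the library labelled female cKO replicate 3, one of the 2 whose sex label conflicts with its Y-linked genes. By label, the log2 fold change of *Sfn* was 0.60 (SE 0.17) in females and 0.92 (SE 0.17) in males. Leaving out the 2 conflicting libraries leaves 2 *Dek* cKO libraries in each sex. Without them the log2 fold change was 0.75 (SE 0.17) in females and 0.92 (SE 0.17) in males. The SEs by sex use a spread pooled over all 4 groups. Within the libraries of 1 name prefix, the log2 fold change of *Sfn* over both sexes was 0.85 (SE 0.15).

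*Sfn* was the only 1 of the 10 genes whose 6 *Dek* cKO values all lay above the 6 WT values. This held for 104 of the 18197 genes (0.572%), and the reverse order held for 19 (0.104%). Because the group was selected on this comparison, nothing is read from this. The log2 fold change of *Sfn* lay between 0.71 and 0.84 when each library was left out in turn. Over all genes, 27 of 18197 were called between the genotypes over both sexes (0.148%), where called means a limma adjusted p under 0.05 and a fold change over 1.2, and 8 were called within the libraries of 1 name prefix. Calls in this comparison are given below only for genes outside the 10.

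The rest of the 14-3-3 family had levels far above *Sfn*. The 6 other members ranged from 316 ± 7.25 TPM for *Ywhaq* to 980 ± 48.9 TPM for *Ywhah* in WT mice (SD, n = 6), and these genes are major transcripts of neurons. None of the 6 was called. *Ywhaq* had the fold change farthest from 0, with 299.9 ± 16.6 TPM in *Dek* cKO mice and a log2 fold change of -0.08 (SE 0.04, limma adjusted p = 0.806).

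**Figure D1:**
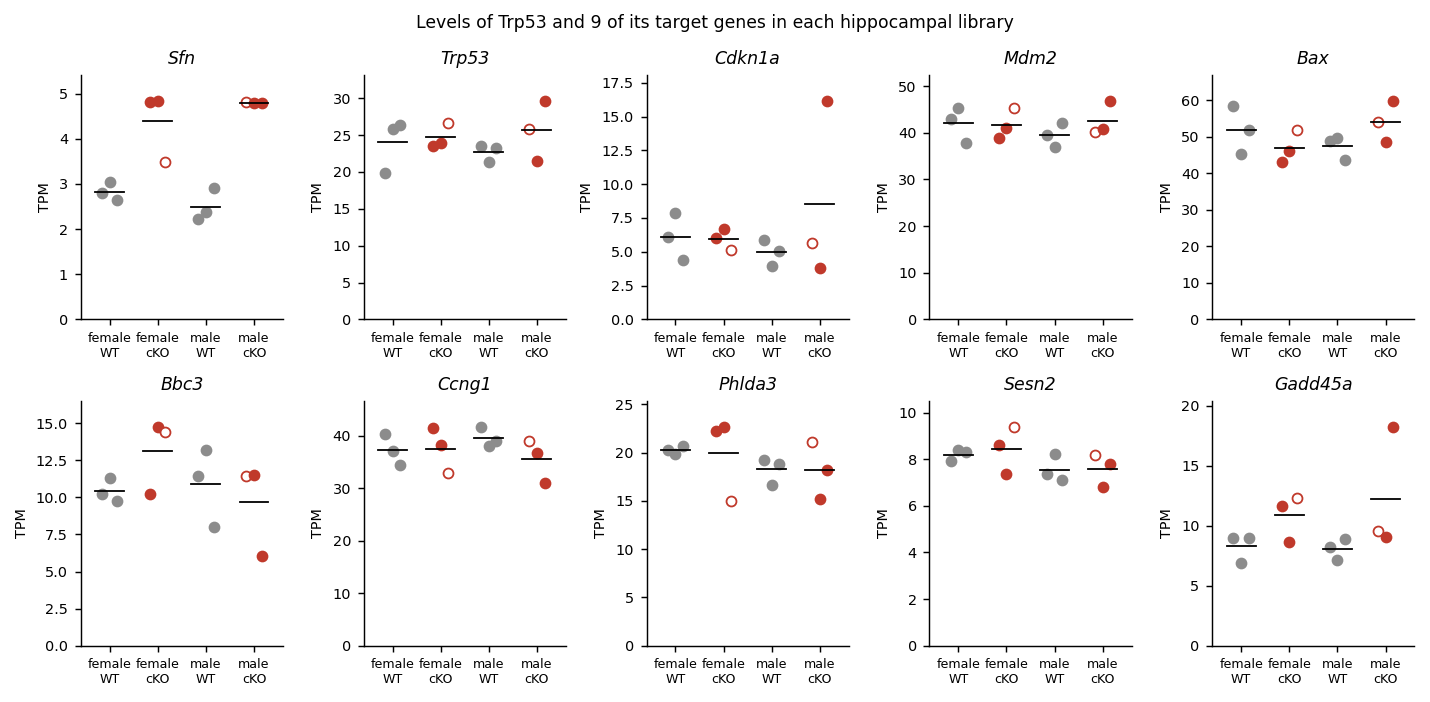
TPM of each of the 10 genes on the vertical axis, with 1 point per library, by labelled sex and genotype (grey WT, red *Dek* cKO) and a line at the mean of each group of 3. Open points mark the 2 libraries whose Y-linked genes conflict with the sex label. In the *Sfn* panel all red points lie above all grey ones, while in the other 9 panels the genotypes overlap.

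*Trp53* lies on chromosome 11 (69580359 to 69591873, plus strand). Its transcript had 23.4 ± 2.52 TPM in WT and 25.2 ± 2.87 TPM in *Dek* cKO mice (SD, n = 6 each), a log2 fold change of 0.11 (SE 0.09). The WT libraries ran from 19.8 to 26.4 TPM and the *Dek* cKO libraries from 21.4 to 29.7 TPM, so 4 of the 6 *Dek* cKO values lay within the WT range and 2 above it. *Mdm2* encodes the ubiquitin ligase that closes the feedback loop on p53. It had 40.8 ± 3.20 TPM in WT and 42.2 ± 3.17 TPM in *Dek* cKO mice, with a log2 fold change of 0.05 (SE 0.06), and it had the smallest spread among *Dek* cKO mice of the 10 genes, a coefficient of variation of 7.505%.

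Among the targets that stop the cell cycle, *Cdkn1a* encodes p21, an inhibitor of cyclin-dependent kinases and the most widely used readout of p53 activity. It had 6.06, 7.87 and 4.42 TPM in the female WT libraries and 5.89, 3.92 and 5.05 TPM in those of male WT mice. The female *Dek* cKO libraries had 6.05, 6.68 and 5.10 TPM and the male ones 5.67, 3.83 and 16.2 TPM. Of the *Dek* cKO values, 4 lay within the WT range of 3.92 to 7.87 TPM and 1 just under it. The exception was male cKO replicate 3, whose 16.2 TPM stood against 7.87 TPM in the highest WT library. The log2 fold change was 0.26 (SE 0.28) with this library and -0.01 (SE 0.18) without it.

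*Gadd45a* encodes a small stress protein that acts in cell cycle arrest and DNA repair, and it is raised both by p53 and by the ATF4 arm of the stress response. It had 9.0, 6.87 and 8.98 TPM in the female WT libraries and 8.20, 7.15 and 8.91 TPM in those of male WT mice. The female *Dek* cKO libraries had 11.7, 8.68 and 12.3 TPM and the male ones 9.55, 9.03 and 18.2 TPM. In 5 of 6 *Dek* cKO libraries the value was above the highest WT value, and in female cKO replicate 2 it lay within the WT range. The log2 fold change of 0.45 (SE 0.16) was next in size to that of *Sfn*. It was 0.31 (SE 0.11) without male cKO replicate 3.

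The relatives of these genes give the context of each family. Among the 6 tested inhibitors of cyclin-dependent kinases, *Cdkn1b* was the most abundant with 30.3 ± 1.65 TPM in WT mice, and *Cdkn1a* (5.53 ± 1.41 TPM) lay near *Cdkn1c* (5.35 ± 1.26 TPM). *Cdkn2a*, whose products act upstream of p53 and in senescence, had 0.382 ± 0.166 TPM in WT and 0.321 ± 0.149 TPM in *Dek* cKO mice. *Gadd45g*, a close relative of *Gadd45a*, had 49.7 TPM in male cKO replicate 3 and between 13.6 and 23.4 TPM in all other libraries. Its log2 fold change was 0.18 (SE 0.24) with that library and -0.06 without it, and 0.31 without female cKO replicate 1. *Ccng1* encodes cyclin G1, which recruits a phosphatase to MDM2. It had 38.4 ± 2.53 TPM in WT and 36.5 ± 3.90 TPM in *Dek* cKO mice, a log2 fold change of -0.08 (SE 0.07).

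Among the apoptosis targets, *Bax* encodes a protein that permeabilizes the mitochondrial outer membrane and *Bbc3* encodes PUMA, a BH3-only protein that sets it off. *Bax* had 49.6 ± 5.28 TPM in WT and 50.6 ± 6.00 TPM in *Dek* cKO mice (log2 fold change 0.03, SE 0.09). *Bbc3* had 10.7 ± 1.76 TPM in WT and 11.4 ± 3.19 TPM in *Dek* cKO mice (log2 fold change 0.06, SE 0.19). In male cKO replicate 3 the 2 genes stood at opposite ends. *Bax* had its highest value of the 12 libraries there, 59.8 TPM, and *Bbc3* its lowest, 6.02 TPM. Without this library the log2 fold change was -0.02 (SE 0.08) for *Bax* and 0.23 (SE 0.13) for *Bbc3*. *Phlda3*, which encodes a repressor of AKT signaling, had 19.3 ± 1.42 TPM in WT and 19.05 ± 3.48 TPM in *Dek* cKO mice (log2 fold change -0.03, SE 0.11). Its spread differed more than its mean, with WT values from 16.7 to 20.7 TPM and *Dek* cKO values from 14.9 to 22.6 TPM. Of the 6 *Dek* cKO values, 3 lay above and 2 below the WT range. The 3 above, female cKO replicates 1 and 2 and male cKO replicate 1, had female levels of *Eif2s3y*. The 2 below, female cKO replicate 3 and male cKO replicate 2, had male levels of it. In WT mice, where the sexes also differ in name prefix, *Phlda3* ran from 19.8 to 20.7 TPM in females. It ran from 16.7 to 19.3 TPM in WT males. The part of sex in this spread was not tested.

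*Sesn2* encodes sestrin 2, a leucine-sensing protein that restrains mTORC1 and oxidative stress. It had 7.87 ± 0.535 TPM in WT and 8.02 ± 0.914 TPM in *Dek* cKO mice, a log2 fold change of 0.02 (SE 0.09). Its relative *Sesn1* was more abundant, with 37.5 ± 1.83 TPM in WT and 39.2 ± 1.89 TPM in *Dek* cKO mice (log2 fold change 0.06, SE 0.05, limma adjusted p = 0.888). *Sesn3* had a mean under the filter, 0.107 TPM in WT mice, and was not tested. Of the 10 genes, 7 had a log2 fold change within 0.12 of 0. Their signs for *Bax*, *Bbc3*, *Phlda3* and *Sesn2* turned when single libraries or both sex-conflicting libraries were left out, that of *Sesn2* also under quantile normalization and that of *Phlda3* also within 1 name prefix.

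A single library, male cKO replicate 3, had the highest of the 12 values for 5 of the 10 genes (*Trp53*, *Cdkn1a*, *Mdm2*, *Bax* and *Gadd45a*) and the lowest for *Bbc3* and *Ccng1*. Over all 18197 genes it also held more extremes than any other library, the highest value for 19.5% of genes and the lowest for 15.3%. Its *Sfn* value, 4.79 TPM, was in among the other *Dek* cKO values. Some astrocyte markers stood apart in the same library, in different directions. The sum over 6 markers was 2212 TPM there against 1104 to 1479 TPM in the other 11 libraries, and this came from *Gfap*, which rises in reactive astrocytes and had 1267 TPM against 208 to 437 TPM. Without *Gfap* the other 5 summed to 945 TPM, within the 875 to 1057 TPM of the other libraries. Among these 5, *Aqp4*, a water channel, had its highest value there (99.4 TPM against 43.3 to 57.3 TPM) and *Gja1*, a gap junction protein, its lowest (68.6 TPM against 116 to 151 TPM). *Slc1a3*, a glutamate transporter, was second lowest with 237 TPM, and *Aldh1l1* had 27.3 TPM, within the range of the others. *Slc1a2*, another glutamate transporter and the most abundant of the 6 in the other 11 libraries, had 513 TPM, within the 452 to 562 TPM of the other libraries. None of the 6 astrocyte markers is listed at 0 in any library. The part of these astrocyte values in the values of *Cdkn1a*, *Gadd45a* and the other genes was not tested.

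The effect of genotype was compared between the sexes as an interaction, the male minus the female log2 fold change, in 1 fit of the 4 groups on all 12 libraries. Only the female WT libraries carry the other name prefix, so the interaction cannot be told apart from a difference between the prefixes. None of the 18197 genes was called for the interaction (limma, 0%), while 770 had an unadjusted p under 0.05, or 4.23%. Leaving out the 2 libraries of conflicting sex leaves 2 *Dek* cKO libraries in each sex. Without them, 1601 of 18198 genes had an unadjusted p under 0.05 (8.8%) and 2 were called. These are *Gm17387* and *Gm13114*, named after their values were seen, which are listed at 0 in all WT libraries and above 0 in 3 and 2 of the *Dek* cKO libraries. The largest differences among the 9 genes other than *Sfn* were those of *Cdkn1a* (0.54, SE 0.59) and *Bbc3* (-0.51, SE 0.36). Without male cKO replicate 3 they were -0.05 (SE 0.36) and -0.21 (SE 0.28), so the order rests on that library. Without the 2 conflicting libraries they were 0.59 (SE 0.71) and -0.59 (SE 0.41). With all 12 libraries, the 9 genes had adjusted p-values between 0.966 and 0.998. *Bax* had a log2 fold change of -0.14 (SE 0.11) in females and 0.19 (SE 0.11) in males, a difference of 0.32 (SE 0.16). Without the 2 conflicting libraries, *Bax* had -0.21 (SE 0.12) in females and 0.19 (SE 0.12) in males, a difference of 0.40 (SE 0.17). The difference of *Phlda3* moved most, from 0.03 (SE 0.22) with to -0.28 (SE 0.14) without them. That of *Gadd45a* went from 0.14 (SE 0.35) to 0.38 (SE 0.39) and that of *Ccng1* from -0.16 (SE 0.15) to -0.32 (SE 0.14), where the 9 adjusted p-values ran from 0.547 to 0.994. Without male cKO replicate 3, that of *Gadd45a* was -0.18 (SE 0.24), with its sign turned, and that of *Ccng1* was -0.07 (SE 0.14). For *Sfn*, as a description, the difference was 0.32 (SE 0.23) with and 0.17 (SE 0.24) without the 2 libraries of conflicting sex.

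Other genes of the pathway were taken from 6 lists by role, which name 80 genes beside the 10, and 78 of these were tested. None was called in either direction between the genotypes over both sexes. At an unadjusted p under 0.05, 3 of the 78 were higher in *Dek* cKO mice (3.85%) and 1 was lower (1.28%). Over all 18197 genes, 880 were higher (4.84%) and 328 lower (1.8%) at that level. Higher values made up 72.8% of these genes as deposited, 60.2% after median ratio rescaling and 57.3% after quantile normalization. Of the 78 genes, the middle log2 fold change (the median) was 0.02, the same as that of all genes to 2 decimals.

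The 3 higher genes were *Rprm*, *Tnfrsf10b* and *Bid*. *Rprm* encodes reprimo, a protein of G2 arrest that is also present in neurons. It had 23.9, 32.2 and 37.7 TPM in the female WT libraries and 35.1, 57.2 and 38.4 TPM in those of male WT mice. The female *Dek* cKO libraries had 68.6, 56.7 and 76.4 TPM and the male ones 40.7, 53.3 and 96.8 TPM. The *Dek* cKO values were above the highest WT value in 3 of 6 libraries. The log2 fold change of 0.80 (SE 0.21, limma adjusted p = 0.312) was the largest among the tested pathway genes. It was 0.67 without male cKO replicate 3 and 0.56 within 1 name prefix.

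*Tnfrsf10b* encodes the mouse receptor for the death ligand TRAIL. It had 0.813 ± 0.126 TPM in WT and 1.23 ± 0.172 TPM in *Dek* cKO mice (SD, n = 6 each), with 4 of 6 *Dek* cKO libraries above the highest WT library. Its log2 fold change was 0.54 (SE 0.16, limma adjusted p = 0.421) and stayed between 0.49 and 0.61 when each library was left out in turn. *Bid*, which links death receptors to mitochondria, had 10.8 ± 1.097 TPM in WT and 12.3 ± 1.30 TPM in *Dek* cKO mice (log2 fold change 0.19, SE 0.09, limma adjusted p = 0.751). The lower gene was *Prkdc*, the catalytic subunit of the DNA-dependent protein kinase that joins broken ends. It had 8.98 ± 0.532 TPM in WT and 8.10 ± 0.518 TPM in *Dek* cKO mice (log2 fold change -0.15, SE 0.07, limma adjusted p = 0.746).

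By role, the lists read as follows, each without the 10 genes. Of 24 genes of the p53 family and its regulators, 8 had a fold change above 0, and the median was -0.04. *Trp73*, a p53 relative active in neural stem cells and choroid plexus, had the largest value among those with at least 1 TPM, 0.21 (SE 0.25), which was 0.06 without male cKO replicate 1 and 0.40 without female cKO replicate 1. Of 7 cell cycle targets, 4 had a fold change above 0, with a median of 0.05. Of 18 apoptosis targets, 14 had one above 0, with a median of 0.13, where 55.8% of all genes tested were above 0. Whether this share differs from that of all genes was not tested.

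The 10 DNA repair targets had a median of 0.03 and ran from -0.06 to 0.15, and *Polk*, a polymerase that copies past damaged bases, was at the upper end (0.26 without male cKO replicate 3). The 12 targets in metabolism and antioxidant defence had a median of -0.02. *Sco2*, a mitochondrial copper chaperone, had the largest value among them, 0.60, with an SE of 1.07 and library values from 0 to 5.31 TPM. It was -0.06 without female WT replicate 3 and 1.25 without female cKO replicate 2. The 7 targets in feedback and autophagy had a median of 0.09, led by *Dram1*, a lysosomal membrane protein, with 0.28 (SE 0.31), which was 0.10 without female cKO replicate 2 and 0.48 without male cKO replicate 1.

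Genes that p53 lowers through p21 in dividing cells gave no called gene either. Of the 14 tested, 6 had a fold change above 0, and the median was -0.01. *Birc5*, a survival factor of dividing cells, had 1.51 ± 0.378 TPM in WT and 1.93 ± 0.504 TPM in *Dek* cKO mice (log2 fold change 0.33, SE 0.21, limma adjusted p = 0.852), and its log2 fold change was 0.09 within 1 name prefix. The 13 tested BCL2 family genes beside *Bax* and *Bbc3* had a median of 0.03. *Pmaip1*, which encodes NOXA, had the largest of these values among genes with at least 1 TPM, with 0.996 ± 0.145 TPM in WT and 1.202 ± 0.169 TPM in *Dek* cKO mice (log2 fold change 0.25, SE 0.15).

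*Gadd45a* and *Sesn2* are also targets of ATF4 and CHOP, the transcription factors of the integrated stress response. The 12 other tested genes of that list had a median log2 fold change of 0.07, and none was called or reached an unadjusted p under 0.05. Male cKO replicate 3, where *Gadd45a* had 18.2 TPM, held the highest of the 12 values for 8 of these 12 genes and the lowest for 2, and the median was 0.002 without it. *Atf4* itself had 137 TPM there and between 73.6 and 88.7 TPM in the other libraries. The part of these values in that of *Gadd45a* was not tested. *Cebpb*, a transcription factor of inflammation and stress, had 28.6 TPM in male cKO replicate 3 and between 8.50 and 13.6 TPM in the other libraries. Its log2 fold change was 0.19 (SE 0.22) with that library and -0.04 without it, and 0.31 without female cKO replicate 1.

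**Figure D2:**
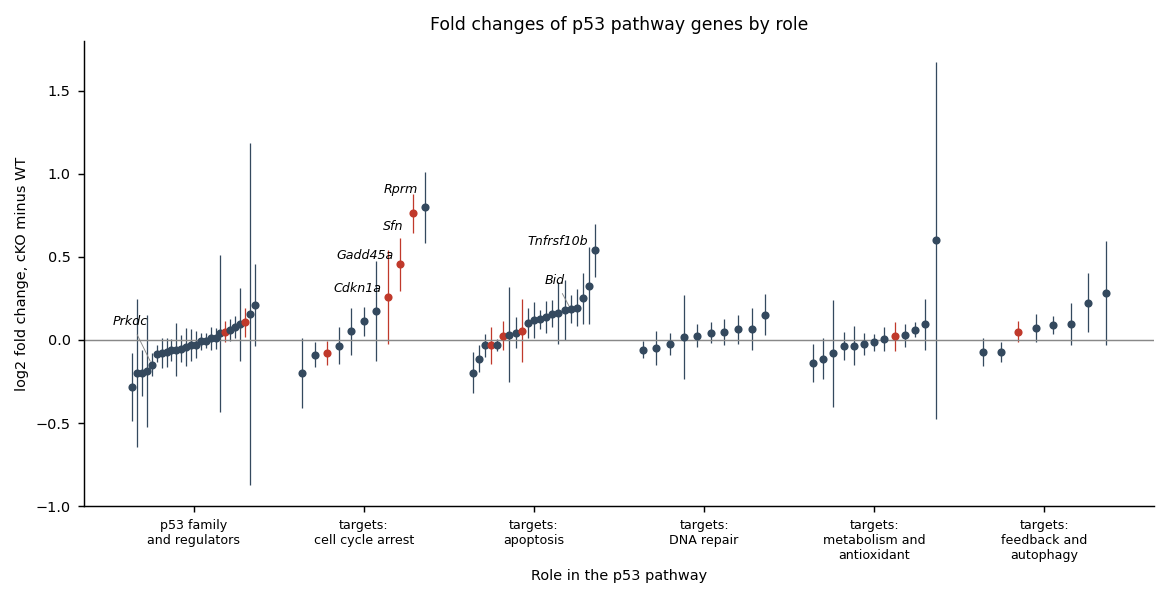
Log2 fold change of *Dek* cKO minus WT (vertical axis, on log2(TPM + 0.1)) with its SE as a bar, for the tested genes of the 6 p53 pathway lists by role (horizontal axis). The 10 genes are in red and the other genes in dark blue, and *Rprm* at 0.80 and *Sfn* at 0.76 lie farthest above 0.

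Correlations across the 12 libraries were computed between *Cdkn1a* and each of the other 9 genes on log2(TPM + 0.1). *Mdm2* had the highest coefficient (Pearson r = 0.681, permutation p = 0.00904, adjusted over 9 relations 0.0814). Its Spearman rho was 0.608 (permutation p = 0.0416, adjusted 0.374). The coefficient was 0.594 without the 2 libraries farthest from the median of *Cdkn1a*, male cKO replicates 2 and 3, and 0.643 within the 9 libraries of 1 name prefix. *Mdm2* was not the highest within that prefix, where r was 0.831 for *Trp53* and 0.807 for *Gadd45a*, and -0.678 for *Bbc3*. These 9 libraries include male cKO replicate 3. No relation passed an adjusted p of 0.05 by either measure, with adjusted p-values of r from 0.0814 to 0.849 and of rho from 0.374 to 0.816.

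*Gadd45a* had an r of 0.620 with *Cdkn1a* (permutation p = 0.0524) and a rho of 0.0769 (permutation p = 0.816). The r was -0.0846 without the 2 farthest libraries, so the coefficient rests on them. The same was true of *Trp53*, with an r of 0.602 (permutation p = 0.0349) that was 0.117 without them, and a rho of 0.336 (permutation p = 0.286). *Bbc3* had an r of -0.596 (permutation p = 0.0568) and 0.0655 without them, and a rho of -0.245 (permutation p = 0.443). *Bax*, *Ccng1*, *Phlda3* and *Sesn2* had r between -0.388 and 0.360. Without the 2 farthest libraries these were -0.254, 0.316, 0.501 and -0.116 in the same order, with the sign turned for all but *Phlda3*. *Sfn* had an r of 0.341 (permutation p = 0.302) and a rho of 0.364 (permutation p = 0.248). The r of *Sfn* was 0.404 without the farthest libraries and 0.367 within 1 prefix.

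**Figure D3:**
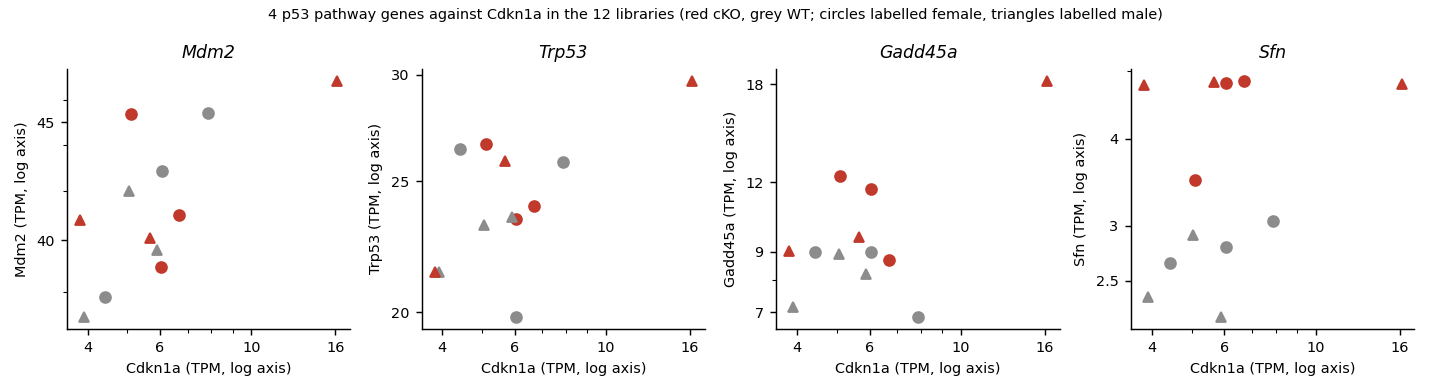
TPM of *Mdm2*, *Trp53*, *Gadd45a* and *Sfn* (vertical axes, log scale) against TPM of *Cdkn1a* (horizontal axes, log scale), with 1 point per library, red for *Dek* cKO and grey for WT, circles for libraries labelled female and triangles for those labelled male. Male cKO replicate 3 stands alone at 16.2 TPM of *Cdkn1a*, and in the *Sfn* panel the genotypes separate along the vertical axis only.

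The genes whose profile over the 12 libraries was most like that of *Sfn* were not among the other 9. Out of 15454 genes averaging 0.5 TPM or more, the 5 named genes with the highest Pearson r were *Clic3* (0.963), *Piwil2* (0.944), *Bfsp1* (0.928), *Col7a1* (0.923) and *2410131K14Rik* (0.923). Since *Sfn* separates the genotypes, this choice favours genes that do so too, and nothing is read from their levels. *Clic3*, a chloride channel family gene, had 4.95 ± 0.754 TPM in WT and 8.34 ± 0.842 TPM in *Dek* cKO mice (SD, n = 6 each). *Col7a1*, the collagen of anchoring fibrils in skin, had 1.33 ± 0.325 and 6.86 ± 1.01 TPM. *Gadd45a* was the nearest of the 9, with an r of 0.548 at place 842, followed by *Cdkn1a* with 0.341 at place 3004. *Clic3*, *Col7a1* and *Piwil2* were again among the first 5 with 1 TPM added before the log transform.

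Markers of epithelia, where *Sfn* is best known, were set beside it. Of 8 such genes 7 were tested and none was called or reached an unadjusted p under 0.05. Their summed level was 11.1 ± 2.96 TPM in WT and 12.4 ± 5.47 TPM in *Dek* cKO mice (SD, n = 6 each). The sums were 13.8, 9.53 and 10.8 TPM in the female WT and 11.5, 6.48 and 14.7 TPM in the libraries of male WT mice, and 5.96, 18.3 and 10.03 TPM in the female *Dek* cKO and 19.9, 10.1 and 9.92 TPM in the male *Dek* cKO libraries. The highest of these sums were in male cKO replicate 1, female cKO replicate 2 and male WT replicate 3. In the same order, these libraries had the highest sums of choroid plexus markers, 4498, 3468 and 3074 TPM. The part of choroid plexus tissue in the epithelial sums was not tested. *Perp*, itself a p53 target, was the most abundant of the epithelial markers with a mean of 4.07 TPM, and *Epcam* lay under the filter.

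The other marker lists are blood, endothelium, microglia, oligodendrocytes, meninges and choroid plexus. None of their genes was called. In astrocytes, *Slc1a2* was lower in *Dek* cKO mice at an unadjusted p under 0.05 (log2 fold change -0.14, SE 0.05, limma adjusted p = 0.539). The 6 astrocyte markers did not share a direction, with 3 above 0, *Gfap* (0.50, SE 0.35), *Aqp4* (0.12, SE 0.16) and *Aldh1l1* (0.12, SE 0.12), and *Slc1a3* (-0.08, SE 0.06) and *Gja1* (-0.15, SE 0.15) below it. Their median was 0.02, and without male cKO replicate 3 it was -0.02, with 0.13 (SE 0.16) for *Gfap*, -0.05 for *Aqp4* and 0.01 for *Gja1*. The summed choroid plexus markers, led by *Ttr*, ran from 48.2 to 4498 TPM over the libraries. The 3 libraries with the highest sums, male cKO replicate 1, female cKO replicate 2 and male WT replicate 3, had 4.82, 4.84 and 2.91 TPM of *Sfn*. The 3 with the lowest, female cKO replicate 1, male cKO replicate 2 and female WT replicate 3, had 4.81, 4.78 and 2.65 TPM. The part of choroid plexus tissue in the *Sfn* values was not tested. The sums of *Dcn*-led meningeal markers ran from 56.3 to 276 TPM. Oligodendrocyte markers, led by *Mbp*, summed to 4083 ± 910 TPM in WT and 3502 ± 681 TPM in *Dek* cKO mice. Endothelial markers, led by *Slco1a4*, summed to 130 ± 8.39 and 126 ± 10.9 TPM, and blood markers, led by *Hbb-bs*, to 1051 ± 324 and 1001 ± 236 TPM.

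The 10 genes lie on 7 chromosomes, 2 each on chromosomes 4, 7 and 11. In the annotation used here (GENCODE M21), 6 of the 10 overlap no other gene, *Sfn* among them. *Bax* and *Sesn2* share bases with another gene model on the same strand, and *Cdkn1a* and *Gadd45a* with one on the opposite strand. Whether reads were assigned by strand is not given in the sources used here, so reads of these overlaps cannot be told apart.

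p53 binds DNA at pairs of a 10-base motif known as the p53 half-site, which reads the same on both strands. The 250 bases before each annotated start were searched for exact matches in the RefSeq promoter windows (GRCm38.p6), which hold all 10 genes in 13 windows. At least 1 match was found for 6 of the 10 genes, in 6 of the 13 windows. Over all 32851 windows 7.13% held a match, and 0.0639% held a pair with at most 13 bases between them. Of the 56 other target genes on the lists, 45 had a window and 8 of these held a match, in 9 of 60 windows and none with such a pair. A match describes letters and not binding, and known p53 sites also lie farther from the starts than these windows reach.

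The only pair of exact matches within the 10 genes was upstream of *Cdkn1a*, before the first of its 2 annotated starts. These matches began 73 and 51 bases before the start, with 12 bases between them. The window of the other start lies downstream, at chr17:29093519-29093768. Stretches that miss the motif by a letter were not searched for, so a half-site with a mismatch beside these matches is not marked. The pair is shown with the single matches of 5 other genes, which together are all the matches found in the 13 windows. Matches are in capitals, read in the direction of transcription. The stretches are chr17:29090896-29090947 for *Cdkn1a* (plus strand), chr10:117710925-117710954 for *Mdm2* (minus) and chr11:69580274-69580303 for *Trp53* (plus). The others are chr6:67037428-67037457 for *Gadd45a* (minus), chr7:45467080-45467109 for *Bax* (minus) and chr11:40755452-40755481 for *Ccng1* (minus).
Cdkn1a: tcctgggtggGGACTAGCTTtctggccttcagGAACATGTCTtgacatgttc
Mdm2: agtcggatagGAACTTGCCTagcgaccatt
Trp53: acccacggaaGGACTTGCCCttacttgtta
Gadd45a: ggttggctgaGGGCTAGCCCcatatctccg
Bax: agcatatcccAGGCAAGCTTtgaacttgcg
Ccng1: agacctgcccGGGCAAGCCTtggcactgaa

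The window of *Sfn*, the gene with the largest fold change of the 10, held no match in the 250 bases before its start (chr4:133602169-133602418, minus strand). It is printed whole, in the direction of transcription, so that it can be set beside the others.
Sfn: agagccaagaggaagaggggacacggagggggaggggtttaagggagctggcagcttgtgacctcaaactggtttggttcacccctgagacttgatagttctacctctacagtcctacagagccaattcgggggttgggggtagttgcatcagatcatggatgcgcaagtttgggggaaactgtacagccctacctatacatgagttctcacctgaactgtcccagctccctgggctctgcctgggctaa
No match was found in the windows of *Phlda3*, *Sesn2* and *Bbc3* or at the other start of *Cdkn1a* either.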

How the data were processed

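Hippocampal RNA of 12 mice was measured by poly-A selected, stranded, paired-end RNA sequencing. A single TPM table, 1 column for each library, was deposited by the authors. The submitters' processing notes name kallisto and mm10, while the study's methods describe trimming, removal of ribosomal reads, and STAR and Salmon on GRCm38. Which of these made the table is not given in the sources used here. TPM divides reads by transcript length and scales each library, so read depth is lost and a count model could not be used. All 12 columns were matched to samples by name and groups follow the sample labels. Gene IDs were named through GENCODE M21 (GRCm38), which holds 25245 of the 26409 IDs.

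Genes averaging 0.1 TPM or more over the libraries (18197) were kept, and log2(TPM + 0.1) was taken. Fold changes of genes near 0.1 TPM are made smaller by the added value. Genotypes were compared with limma (version 3.58.1, R 4.3.3; trended prior, two-sided moderated statistics) in 2 groups of 6, and the sexes and their interaction in a 4-group fit, with Benjamini-Hochberg adjustment over all genes tested. Correlations used two-sided permutation tests with 100000 resamples. The members and gene lists (13 lists, 6 of them on the p53 pathway, and 10 marker lists) were chosen with earlier results of these data known. Genes named are the 10 members, list genes at an unadjusted p under 0.05, the gene of each list with the largest absolute fold change among those averaging 1 TPM or more, the most abundant marker of each list, the 5 genes most like *Sfn*, and *Dek*, *Eif2s3y* and *Ddx3y* as checks. Other genes were named after their values were seen. Some genes that meet the rule are not reported here.

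Single choices were replaced in turn: a pseudocount of 0.5 or 1 TPM, a filter at 1 TPM or none, quantile normalization or median ratio rescaling, a replicate block, a covariate for sex, a prior without trend, libraries of 1 name prefix alone, both libraries of conflicting sex left out, and each library left out in turn. The steps were tested on simulated data. Tables and correlations used scipy 1.17.1, numpy 2.4.6 and pandas 2.3.3 under Python 3.11.15.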

Additional observations from a re-analysis of the deposited data

Results flagged for a closer look

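The *Sfn* value of the library labelled female cKO replicate 3, 3.49 TPM, stood apart from the other 5 *Dek* cKO libraries, which lay between 4.78 and 4.84 TPM. Its gap to the nearest of them, divided by the range of the 6 libraries, was 0.965 on the log2 scale, above the limit of 0.625 for 6 values. It was still above the highest WT value of 3.04 TPM, and the log2 fold change of *Sfn* was 0.84 without this library. The library is one of the 2 whose Y-linked genes conflict with the sex label. In all, 20 sets of 6 values were looked at (10 genes in 2 genotypes), and chance passes that limit in about 1 in 20. The *Cdkn1a* value of male cKO replicate 3, 16.2 TPM, came close to the limit with 0.616.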

How the results depend on the processing

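In the comparison of genotypes over both sexes, the 27 genes called became 8 within the libraries of 1 name prefix (9 libraries), 16 without both libraries of conflicting sex, 17 with no filter, 3 with a replicate block, 32 with 0.5 or 1 TPM added and 36 with no trend, and they ranged from 13 to 27 when each library was left out in turn. The lowest counts came without female cKO replicate 2 (13), female cKO replicate 1 (15) and male cKO replicate 1 (17). The replicate numbers did not pair the libraries, since the deviations of same-numbered WT and *Dek* cKO libraries had correlations between -0.0385 and 0.0445. The log2 fold change of *Sfn*, a description since the group was selected on this comparison, lay between 0.61 and 0.85 over all 23 alternatives.

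The counts for the p53 pathway lists leave out the member genes, *Sfn* among them. Of the other tested genes on these lists, 0 were called in either direction in every alternative run. At an unadjusted p under 0.05, the 3 higher genes became 5 without both libraries of conflicting sex and ranged from 2 to 5 with single libraries left out (5 without male cKO replicate 2). They became 2 with 0.5 or 1 TPM added, with median ratio rescaling, with quantile normalization and with sex as a covariate. *Bid* stayed under that limit in 3 of the 12 runs with a single library left out. The 1 lower gene became 0 within 1 name prefix, with the replicate block and with sex as a covariate, and ranged from 0 to 1 with single libraries left out. The interaction, with 0 genes called, gave 2 without both libraries of conflicting sex, 2 with no filter and 2 with no trend, and 0 to 1 with single libraries left out (1 without female cKO replicate 2 or male cKO replicate 1). The causes were not tested. Over the 23 alternatives, the log2 fold change between the genotypes ran from -0.01 to 0.40 for *Cdkn1a* and from -0.06 to 0.23 for *Bbc3*. That of *Gadd45a* ran from 0.31 to 0.53. Among the 9 genes other than *Sfn*, the sign turned in at least 1 alternative for *Cdkn1a*, *Bax*, *Bbc3*, *Phlda3* and *Sesn2*. It did not turn for *Trp53*, *Mdm2*, *Ccng1* and *Gadd45a*. The study's methods give a read depth per sample, but the reads of each gene cannot be recovered from TPM. The counting error behind low values such as those of *Tnfrsf10b* or *Sfn* is therefore not given.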
